A study of Mus musculus with 41 samples.

Results

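The genes described here are Dusp1, Dusp2, Dusp4, Dusp5 and Dusp6, which encode dual specificity phosphatases, followed across 41 mouse melanomas by the number of days since doxycycline was withdrawn. They were chosen by symbol (Entrez genes 19252, 13537, 319520, 240672 and 67603 in that order), and they are 5 of 18194 genes named by the array's annotation. Each has 1 probe set that names it alone, and all 5 passed the filter on low values, Dusp4 in 40 arrays and the others in 41. The tumours grew in iBIP mice, a strain in which BRAF drives melanoma and doxycycline in the drinking water keeps the driver on. RNA from pieces of macrodissected frozen tumour was labelled with biotin and hybridised to Affymetrix mouse expression arrays. Day 0, with doxycycline still given, had 4 tumours. Days 1, 2, 3, 6 and 9 had 7, 5, 6, 4 and 3 tumours, days 16 and 29 had 1 each, and 10 tumours came from days 63 to 163. The last 10, from days 63, 77, 90, 121, 136 and 163, are called late tumours. Every group, day 0 included, is labelled with the same strain. The labels give no list of its alleles, no promoter of the driver, no age or sex, and no word on whether each tumour came from its own mouse or whether a late tumour had shrunk or regrown.

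BRAF starts a kinase relay in which it phosphorylates MEK and MEK phosphorylates ERK. Dual specificity phosphatases of the MAP kinase phosphatase family remove the phosphates from both the threonine and the tyrosine that switch a MAP kinase on. ERK in turn raises transcription of several of these phosphatases, so they act as negative feedback and their mRNA is widely read as a measure of ERK signalling in melanoma. DUSP5 and DUSP6 are selective for ERK, DUSP5 in the nucleus and DUSP6 in the cytoplasm. DUSP1, DUSP2 and DUSP4 are nuclear and also act on JNK and p38. DUSP1 is an immediate early gene that stress and growth factors induce as well, and DUSP2 was first described in activated lymphocytes.

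Promoter sequences are shown with the response elements they hold, and the part of these elements in the changes below was not tested. RefSeq start sites on build GRCm38.p6 gave the 250 bases before the start for 4 of the 5 genes. Dusp4 had no promoter entry. Capitals mark matches on either strand to 6 motifs, namely the cyclic AMP response element TGACGTCA, its core TGACG, the AP-1 site TGANTCA, the ETS site CCGGAAG, the E-box CACGTG and the serum response (CArG) element. The core lies inside the full cyclic AMP response element, so a match to the full element is also a match to the core. Each sequence runs 5′ to 3′ on the strand of its gene, with Dusp5 and Dusp6 on the plus strand at chr19:53528895-53529144 and chr10:99262981-99263230 and Dusp1 on the minus strand at chr17:26508473-26508722.
Dusp5: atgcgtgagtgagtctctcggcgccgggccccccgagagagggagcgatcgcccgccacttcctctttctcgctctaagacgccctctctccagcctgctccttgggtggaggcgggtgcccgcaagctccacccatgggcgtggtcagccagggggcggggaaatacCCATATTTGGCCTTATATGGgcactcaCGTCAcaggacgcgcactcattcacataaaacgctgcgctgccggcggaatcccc
Dusp6: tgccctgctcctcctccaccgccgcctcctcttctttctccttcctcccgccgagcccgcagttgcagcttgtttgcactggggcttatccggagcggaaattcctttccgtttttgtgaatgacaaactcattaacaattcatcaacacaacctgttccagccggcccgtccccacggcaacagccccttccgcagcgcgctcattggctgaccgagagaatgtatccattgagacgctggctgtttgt
Dusp1: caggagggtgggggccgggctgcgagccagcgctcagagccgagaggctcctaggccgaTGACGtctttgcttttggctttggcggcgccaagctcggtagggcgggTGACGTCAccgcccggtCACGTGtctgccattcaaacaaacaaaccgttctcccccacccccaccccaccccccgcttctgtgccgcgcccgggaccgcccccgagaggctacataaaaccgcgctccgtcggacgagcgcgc
The Dusp5 promoter held 2 adjoining serum response elements, at -82 to -73 and -72 to -63 from the start, and a cyclic AMP response element core at -55 to -51. A serum response element was present in 1.48% of 32536 mouse promoters of the same length. The Dusp1 promoter held the full cyclic AMP response element at -143 to -136, another core at -191 to -187 and an E-box at -126 to -121. The full element was present in 1.56% of the promoters, the core in 17.9% and the E-box in 6.04%. The Dusp6 window held none of the 6 motifs, and that of Dusp2 (chr2:127335909-127336158, plus strand) held only an E-box, at -109 to -104. The AP-1 letters TGANTCA and the ETS letters CCGGAAG were in none of the 4 windows, against 6.73% and 6.95% of all promoters. Other forms of these sites were not searched, so the windows are not shown to lack them.

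Arrays carry no sequencing depth, and the number of tumours sets the precision. Levels of the bioD and dap spike-in controls split the arrays into 3 spike-in sets that follow the groups closely. Set 1 held the whole of days 2, 3 and 6 with 1 day 1 tumour, set 2 held 6 of day 1 and 8 late tumours, and set 3 held days 0, 9, 16 and 29 and 2 late tumours. The difference between 3′ and 5′ probe sets of Gapdh, which is larger in degraded RNA, averaged 2.62 ± 1.38 log2 units in late tumours (SD, n = 10) and 0.45 ± 0.12 at day 0 (SD, n = 4). It was over 2 in 8 late tumours and 1 of day 9. Of 13 measured melanocyte lineage genes, 11 passed the filter, and Tyr and Gpr143 did not. Because these are bulk samples, fewer cells of a type and less RNA per cell cannot be told apart. Levels below are log2(intensity + 16) after quantile normalisation, and differences are in the same log2 units with limma's SE and an adjusted p over 14319 genes.

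Dusp4, Dusp5 and Dusp6 were lower than at day 0 in the late tumours in every setting tried, and all 3 were also called lower at days 1, 3, 6 and 9. The calls of days 1 to 6 were lost with a block for spike-in set, and those of day 1 also without day 0 replicate 4. Those of day 9 were lost within spike-in set 3, with only the compared groups fitted, and without tumours of Gapdh difference over 2. In late tumours Dusp4 was 8.12-fold lower than at day 0, Dusp5 4.81-fold and Dusp6 2.7-fold, with folds taken on the log2(intensity + 16) scale. Dusp2 was 1.38-fold lower and Dusp1 1.84-fold higher, and these calls were lost in 9 and 8 of 17 other settings.

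**Figure D1:**
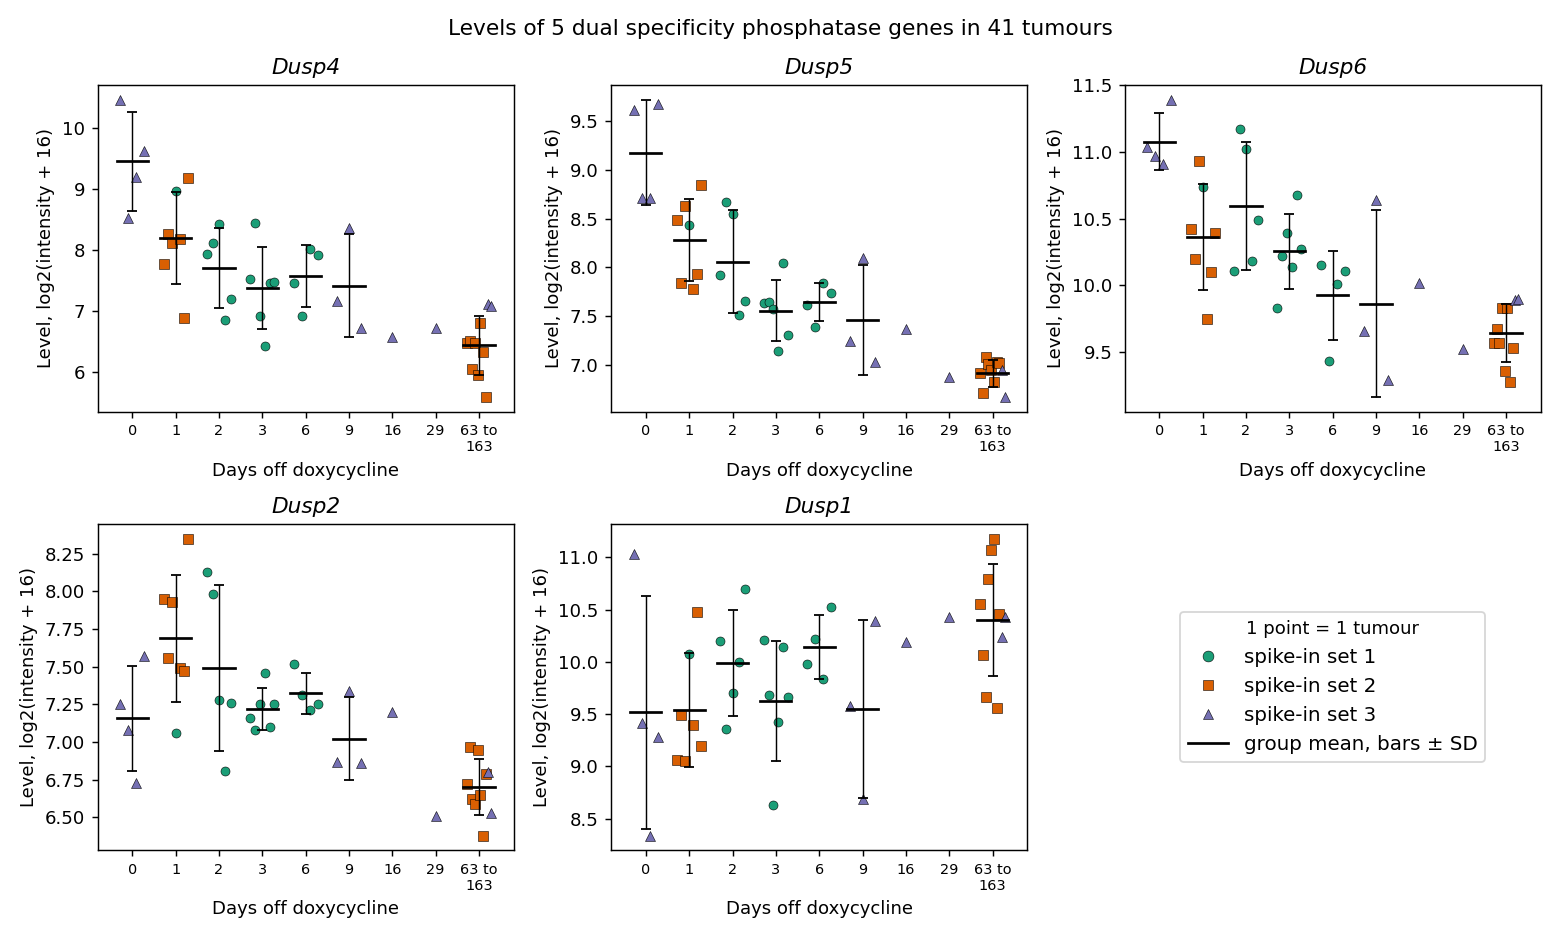
Levels of the 5 genes, as log2(intensity + 16), in each of 41 tumours by days off doxycycline (horizontal axis, not to scale in time). Each point is 1 tumour, coloured by spike-in set, and bars are the group mean ± SD. Every late tumour lies below every day 0 tumour for Dusp4, Dusp5 and Dusp6, and the groups overlap for Dusp2 and Dusp1.

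Dusp4 encodes a nuclear phosphatase that acts on ERK, JNK and p38. Its level at day 0 was 10.47, 8.53, 9.20 and 9.63 in the 4 tumours, and at day 1 it ran over 7 tumours from 6.89 through a median of 8.18 to 9.19. The day 2 tumours had 7.94, 8.11, 8.43, 6.85 and 7.19, and the 6 of day 3 ran from 6.43 through a median of 7.47 to 8.45. At day 6 the values were 7.46, 6.91, 8.02 and 7.92, and at day 9 they were 7.16, 8.36 and 6.72. All tumours of days 2 to 9 lay below all of day 0, while 5 of the 7 day 1 tumours did. The lone tumours of days 16 and 29 had 6.57 and 6.72, and the 10 late tumours ran from 5.59 through a median of 6.48 to 7.11. The highest late tumour was thus below the lowest day 0 tumour.

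Dusp5 encodes the nuclear phosphatase selective for ERK. Its level at day 0 was 9.62, 8.71, 8.71 and 9.68, and at day 1 it ran from 7.78 through a median of 8.44 to 8.85. The values were 7.92, 8.67, 8.55, 7.51 and 7.65 at day 2, and at day 3 they ran from 7.14 through 7.60 to 8.05. At day 6 they were 7.61, 7.39, 7.84 and 7.74, and at day 9 they were 7.24, 8.10 and 7.03. Only 1 of the 7 day 1 tumours reached the day 0 range, and no tumour of days 2 to 9 did. Day 16 had 7.37, day 29 had 6.87, and the late tumours ran from 6.67 through 6.94 to 7.08. The late tumours were close to each other, with an SD of 0.14 log2 units (n = 10), against 0.54 at day 0 (n = 4).

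Dusp6 encodes the cytoplasmic phosphatase selective for ERK. Its level at day 0 was 11.04, 10.97, 10.91 and 11.39, and at day 1 it ran from 9.75 through a median of 10.39 to 10.93. Day 2 had 10.11, 11.17, 11.02, 10.18 and 10.49, and day 3 ran from 9.83 through 10.24 to 10.68. Day 6 had 10.15, 9.43, 10.01 and 10.11, and day 9 had 9.66, 10.64 and 9.29. At day 2 the tumours with 11.17 and 11.02 lay within the day 0 range, so those groups overlapped, as did day 1 and day 0 through 1 tumour. From day 3 on, no tumour reached the day 0 range. Day 16 had 10.02, day 29 had 9.52, and the late tumours ran from 9.28 through 9.62 to 9.90.

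Dusp2 encodes the phosphatase also known as PAC-1, which is found in lymphoid cells. Its level at day 0 was 7.25, 7.08, 6.73 and 7.57, and at day 1 it ran from 7.06 through a median of 7.56 to 8.35. Day 2 had 8.13, 7.98, 7.28, 6.81 and 7.26, and day 3 ran from 7.08 through 7.21 to 7.46. Day 6 had 7.52, 7.31, 7.21 and 7.25, and day 9 had 6.87, 7.34 and 6.86. Dusp2 was highest at days 1 and 2, where 3 of 7 and 2 of 5 tumours lay above all of day 0. Day 16 had 7.2, day 29 had 6.51, and the late tumours ran from 6.38 through 6.68 to 6.97, with 6 of 10 below all of day 0.

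Dusp1 encodes the phosphatase MKP-1, an immediate early gene product. Its level at day 0 was 11.03, 9.42, 8.34 and 9.28, the widest day 0 spread among the 5 genes (SD 1.12, n = 4). At day 1 it ran from 9.05 through a median of 9.40 to 10.48, and at day 2 it was 10.2, 9.36, 9.7, 10.0 and 10.7. The 6 tumours of day 3 ran from 8.63 through 9.67 to 10.21, and day 6 had 9.98, 10.22, 9.84 and 10.53. All of these lay inside the day 0 range. Day 9 had 9.58, 8.69 and 10.39, day 16 had 10.19 and day 29 had 10.43. The late tumours ran from 9.56 through 10.45 to 11.18, and 2 of 10 were above all of day 0.

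At day 1, 3 of the 5 genes were called lower than at day 0, where 6.25% of all genes tested were lower and 7.57% higher. Of all genes, 895 were lower and 1084 higher, and with arrays centred on their medians instead of quantile normalised the numbers were 605 and 1262. Dusp4 fell by 1.26 ± 0.40 (adjusted p = 0.0307), Dusp5 fell by 0.90 ± 0.23 (adjusted p = 0.00823) and Dusp6 fell by 0.72 ± 0.22 (adjusted p = 0.0259). Dusp2 differed by 0.53 ± 0.20 (adjusted p = 0.0637) and Dusp1 by 0.02 ± 0.38 (adjusted p = 0.985), with a 95% interval of -0.75 to 0.79 for Dusp1. The difference of Dusp2 passed the threshold with arrays centred on their medians (0.61, adjusted p = 0.0287), unnormalised (0.59, adjusted p = 0.0327) or weighted (0.66, adjusted p = 0.00485), and without day 1 replicate 4 (0.63, adjusted p = 0.0187). The day 1 falls each depended on single tumours: without day 0 replicate 4 none was called (adjusted p = 0.0999 for Dusp4, 0.0687 for Dusp5 and 0.126 for Dusp6), and without day 0 replicate 1 only Dusp5 was.

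The falls of Dusp4 and Dusp5 were larger at day 3 than at day 1 in estimate, and that of Dusp6 was larger at day 6. Day 2 had 2 of the 5 genes called lower, where 8.35% of all genes were, and days 3 and 6 had 3 each, where 11.6% and 6.46% were. Dusp4 fell by 1.75 ± 0.43 at day 2 (adjusted p = 0.00577), it fell by 2.08 ± 0.41 at day 3 (adjusted p = 0.000599) and it fell by 1.88 ± 0.45 at day 6 (adjusted p = 0.00571). Dusp5 fell by 1.12 ± 0.25 at day 2 (adjusted p = 0.0025), it fell by 1.62 ± 0.24 at day 3 (adjusted p = 2e-05) and it fell by 1.54 ± 0.26 at day 6 (adjusted p = 0.000287). Dusp6 differed by -0.48 ± 0.24 at day 2 (adjusted p = 0.162). It fell by 0.82 ± 0.23 at day 3 (adjusted p = 0.00928, and 0.0529 without day 0 replicate 4) and fell by 1.15 ± 0.25 at day 6 (adjusted p = 0.00244). Dusp2 and Dusp1 were not called on these days, with differences of 0.06 to 0.33 for Dusp2 and 0.11 to 0.62 for Dusp1. With array weights Dusp1 was called higher at day 6 (1.00, adjusted p = 0.0335). Groups that did not overlap, with the later tumours lower, made up 10.1%, 10.5% and 12.4% of all genes at days 2, 3 and 6.

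Days 1, 2, 3 and 6 share no spike-in set with day 0, so no difference within a set exists for them. With a block for the set, which ties the groups together through 1 day 1 tumour and 2 late tumours, no fall on those days was called. Dusp4 then differed by -0.57, -1.84, -2.17 and -1.96 at days 1, 2, 3 and 6 (adjusted p = 0.592, 0.338, 0.227 and 0.311). Dusp5 differed by -1.06, -1.44, -1.94 and -1.85 (adjusted p = 0.0671, 0.192, 0.0692 and 0.107), and Dusp6 by -0.47, -0.61, -0.95 and -1.28 (adjusted p = 0.415, 0.629, 0.373 and 0.232). Apart from Dusp4 and Dusp6 at day 1 these differences were no smaller than without the block, and their errors were larger. Steps after day 1 were not called either. Day 6 against day 1 gave no call among the 5 genes, where 2.51% of all genes were lower, and days 3 and 6 against day 2, which lie within set 1, gave 0% of all genes (794 at an unadjusted p under 0.05).

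At day 9, which shares spike-in set 3 with day 0, Dusp4 fell by 2.04 ± 0.49 (adjusted p = 0.0133), Dusp5 fell by 1.72 ± 0.28 (adjusted p = 0.000769) and Dusp6 fell by 1.21 ± 0.27 (adjusted p = 0.00889). These 3 of 5 genes compare with 1.91% of all genes called lower, and with 8.02% for groups that did not overlap. A two-sided exact permutation of the 3 day 9 and 4 day 0 tumours gave each p = 0.0571, the smallest possible in this design. When only set 3 arrays were fitted the differences were the same and the adjusted p values were 0.164, 0.155 and 0.163, and with the tumour of Gapdh difference over 2 left out (day 9 replicate 3) and the late ones like it, 0.191, 0.0652 and 0.188. Dusp4 was also not called without day 9 replicate 1 or day 0 replicate 1. With a block for spike-in set all 3 were called (adjusted p = 0.00986, 0.000954 and 0.00801).

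**Figure D2:**
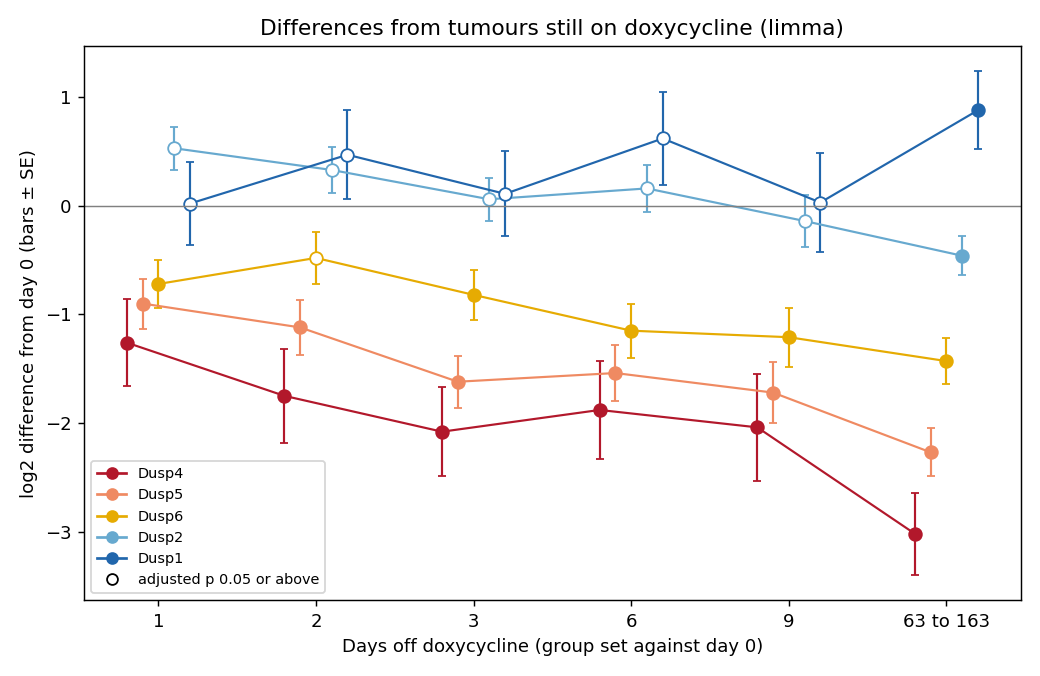
Differences from day 0 in log2 units (vertical axis, bars ± SE from limma) for the 5 genes in tumours of days 1, 2, 3, 6, 9 and 63 to 163 off doxycycline (horizontal axis). Filled points have an adjusted p under 0.05. Dusp4, Dusp5 and Dusp6 lie below 0 throughout, and Dusp2 and Dusp1 lie near or above 0 until day 9.

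In late tumours all 5 genes were called, 4 lower and 1 higher than at day 0, where 20.1% of all genes were lower and 26.3% higher. Dusp4 fell by 3.02 ± 0.38 (adjusted p = 1.89e-07), Dusp5 fell by 2.27 ± 0.22 (adjusted p = 4.3e-09) and Dusp6 fell by 1.43 ± 0.21 (adjusted p = 1.76e-06). Ordered by difference from the most lowered gene, Dusp4 was number 15, Dusp5 number 51 and Dusp6 number 232 of 14319 genes. For these 3 genes every late tumour lay below every day 0 tumour, as for 7.67% of all genes, and the two-sided exact permutation p was 0.002 each, the smallest that 10 and 4 tumours allow. The 3 falls were called in each of 17 other settings and without any of the 14 tumours. Their differences ran over those settings from -3.69 to -2.36 for Dusp4, from -2.42 to -1.90 for Dusp5 and from -1.63 to -1.18 for Dusp6. None of these settings treated spike-in set and the Gapdh difference together. Without tumours of Gapdh difference over 2, only late replicates 5 and 8 remained (0.6 and 0.27), both of set 2, which has no day 0 tumour. Late replicates 9 and 10, which share set 3 with day 0, had Gapdh differences of 2.41 and 4.41.

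Within spike-in set 3, the 2 late tumours of days 136 and 163 had lower levels than the 4 day 0 tumours for the same 3 genes. Dusp4 was 7.11 and 7.08 in those late tumours, and differed from day 0 by -2.36 (adjusted p = 0.0268). Dusp5 was 6.95 and 6.67, with a difference of -2.37 (adjusted p = 0.0102), and Dusp6 was 9.89 and 9.90, with a difference of -1.18 (adjusted p = 0.0423). None of the 3 overlapped with day 0, as for 16.1% of all genes between these 2 and 4 tumours. The exact permutation p of 2 against 4 tumours was 0.133, the smallest possible.

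Dusp2 and Dusp1 were called in late tumours with smaller margins. Dusp2 fell by 0.46 ± 0.18 (adjusted p = 0.0387), and Dusp1 rose by 0.88 ± 0.36 (adjusted p = 0.042). Neither was called with a block for spike-in set (-0.50 and 0.82, adjusted p = 0.145 and 0.257), with the Gapdh difference as a covariate (-0.32 and 0.99, adjusted p = 0.333 and 0.116), or without tumours in which it was over 2 (-0.29 and 1.25, adjusted p = 0.496 and 0.0725). Each lost its call in 7 of the 14 fits that left out 1 tumour. The difference of Dusp1 was 0.49 without day 0 replicate 3, whose level of 8.34 was the lowest of all 41 tumours (adjusted p = 0.297), and 1.39 without day 0 replicate 1, whose 11.03 was the highest of day 0 (adjusted p = 0.00222). Dusp2 lost its call, among others, without day 0 replicate 4 (-0.33, adjusted p = 0.197) and with arrays centred on their medians (-0.40, adjusted p = 0.065).

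The late tumours were also set against day 1, because 8 of them and 6 day 1 tumours share spike-in set 2. All 5 genes were called in the same directions as against day 0, where 22.8% of all genes were lower and 28.9% higher. Within set 2, Dusp4 averaged 6.27 ± 0.39 in late tumours and 8.07 ± 0.75 at day 1, a difference of -1.79 (adjusted p = 0.000174). Dusp5 averaged 6.94 ± 0.12 in late tumours and 8.25 ± 0.46 at day 1, a difference of -1.31 (adjusted p = 2.96e-05). Dusp6 averaged 9.58 ± 0.20 in late tumours and 10.30 ± 0.39 at day 1, a difference of -0.72 (adjusted p = 0.00149; SD, n = 8 and 6 throughout).

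Dusp2 and Dusp1 differed in opposite directions in that comparison. Dusp2 averaged 6.71 ± 0.19 in late tumours of set 2 and 7.79 ± 0.35 at day 1, a difference of -1.09 (adjusted p = 4.55e-05). Dusp1 averaged 10.42 ± 0.61 in late tumours and 9.45 ± 0.54 at day 1, a difference of 0.97 (adjusted p = 0.0119; SD, n = 8 and 6 for both genes). Dusp2, Dusp4 and Dusp5 did not overlap between the groups within the set, as for 8.93% of all genes, and Dusp6 and Dusp1 did. Over all 10 late and 7 day 1 tumours, Dusp2 and Dusp5 did not overlap, as for 3.72% of all genes. With the Gapdh difference as a covariate Dusp1 was not called (0.97, adjusted p = 0.0819), and the other 4 were.

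Dusp4, Dusp5 and Dusp2 were lower in late tumours than in the mean of days 6 and 9. Dusp4 fell by 1.06 ± 0.32 (adjusted p = 0.0106), Dusp5 fell by 0.64 ± 0.18 (adjusted p = 0.00787) and Dusp2 fell by 0.47 ± 0.15 (adjusted p = 0.0185), 3 of 5 genes against 13.8% of all genes. Dusp6 differed by -0.25 ± 0.17 (adjusted p = 0.279) and Dusp1 by 0.55 ± 0.30 (adjusted p = 0.158). With array weights Dusp6 was called lower (-0.43, adjusted p = 0.0333). None of the 3 falls was called without day 9 replicate 2, and with a block for spike-in set only Dusp2 was (-0.85, adjusted p = 0.0137). With the Gapdh difference as a covariate none was called (adjusted p = 0.0803 for Dusp4, 0.24 for Dusp5 and 0.364 for Dusp2).

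**Figure D3:**
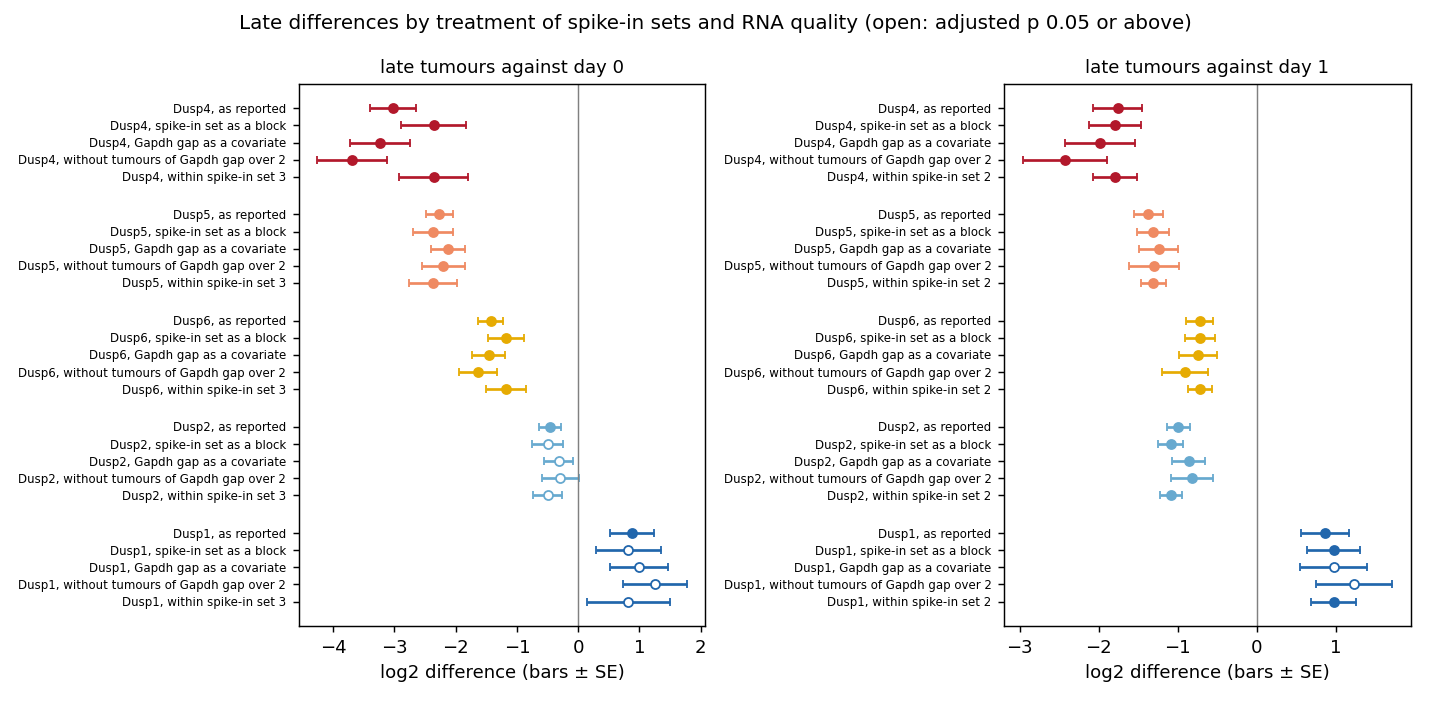
Late differences of the 5 genes in log2 units (horizontal axis, bars ± SE) against day 0 (left) and day 1 (right), as reported and with spike-in sets or the Gapdh 3′ to 5′ difference treated otherwise. Open points have an adjusted p of 0.05 or above. The falls of Dusp4, Dusp5 and Dusp6 are filled throughout, and the fall of Dusp2 and the rise of Dusp1 against day 0 are filled only as reported.

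The sizes of the late changes differed between most pairs of the 5 genes. The differences of each pair of genes from day 0 were compared by a two-sided exact permutation test over 1001 splits of the tumours, adjusted over 10 pairs. Dusp4 fell further than Dusp5 by 0.76 ± 0.30 (adjusted p = 0.04) and further than Dusp6 by 1.59 ± 0.40 (adjusted p = 0.00286). The gap between Dusp4 and Dusp5 was not seen within spike-in set 3, where it was 0.01 ± 0.27 for 2 late and 4 day 0 tumours, and it was -0.48 ± 0.31 between late tumours and day 1 within set 2 (exact permutation, adjusted p = 0.132). Dusp5 fell further than Dusp6 by 0.83 ± 0.22 (adjusted p = 0.005). Within set 2, late against day 1, Dusp4 and Dusp5 each fell further than Dusp6, with differences of -1.08 ± 0.34 and -0.60 ± 0.16 (exact permutation, adjusted p = 0.00667 and 0.004), and within set 3 the differences were -1.18 ± 0.39 and -1.19 ± 0.25, in a design that cannot go below p = 0.133. Dusp2 differed from Dusp4, Dusp5 and Dusp6 by 2.56, 1.80 and 0.97 (adjusted p = 0.00286 each), and Dusp1 from Dusp2 by 1.34 ± 0.52 (adjusted p = 0.0133). Within set 2, late against day 1, Dusp2 differed from Dusp4 by 0.71 ± 0.29 (exact permutation, adjusted p = 0.0419). There it differed from Dusp5 by 0.23 ± 0.12 and from Dusp6 by -0.37 ± 0.17 (adjusted p = 0.114 and 0.0532), so a smaller fall than theirs was not seen. At day 3, over 210 splits, Dusp5 fell further than Dusp6 by 0.80 ± 0.23 (adjusted p = 0.0477). Dusp4 differed from Dusp5 by -0.46 ± 0.34 (adjusted p = 0.254) and from Dusp6 by -1.26 ± 0.49 (adjusted p = 0.068), which did not pass.

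In the order of group means, with the lone tumours of days 16 and 29 left out, Dusp4 and Dusp5 were highest at day 0, then day 1, then day 2, and lowest in late tumours. Dusp6 was highest at day 0, then day 2, then day 1, and then declined with time to the late tumours. Dusp2 was highest at day 1 and Dusp1 in late tumours, and Dusp1 was lowest at day 0. The lone day 29 tumour lay beyond the late mean for Dusp5 (6.87 against 6.91), Dusp6 (9.52 against 9.64), Dusp2 (6.51 against 6.70) and Dusp1 (10.43 against 10.40), and inside the late range for each. None of 30 neighbouring pairs of groups in these orders was separate in range. The lowest exact permutation p was 0.00724, between late tumours and day 3 for Dusp4, and none passed after adjustment over the 30 (lowest adjusted p = 0.217).

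Among the 10 late tumours, levels of Dusp4 and Dusp6 ran together. Pearson's r was 0.74 (permutation p = 0.0154, adjusted p = 0.135) and Spearman's rho 0.89 (permutation p = 0.00132, adjusted p = 0.0462), with p adjusted over 35 relations. Without the 2 tumours farthest from the median of Dusp4 r was 0.78, and within the 8 late tumours of set 2 it was 0.56 and rho 0.81. The Gapdh difference had r = 0.56 with Dusp4 (permutation p = 0.098, adjusted p = 0.312) and 0.44 with Dusp6 (permutation p = 0.212, adjusted p = 0.464) in the same tumours, and -0.15 and 0.11 without the 2 farthest, and its part in the relation was not tested. For Dusp5, r with Dusp4 was -0.59 (permutation p = 0.0722, adjusted p = 0.281) and with Dusp6 -0.49 (permutation p = 0.144, adjusted p = 0.367). The late Dusp5 values had an SD of only 0.14 log2 units.

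The genes most like each phosphatase gene across all 41 tumours were ranked by Pearson's r, a description that includes the differences between groups. For Dusp4 they were Slc14a1 (0.93), Prkg2 (0.92), Ngef (0.90), Unc5b (0.88) and Dusp5 (0.88). For Dusp5 they were Hbegf (0.93), which encodes an EGF receptor ligand, Ptprn (0.91), E2f8 (0.91), Traf4 (0.90) and Slc9a2 (0.90). For Dusp6 they were E2f8 (0.89), Dusp5 (0.87), Rab3ip (0.86), Lrrfip1 (0.85) and Slc14a1 (0.84). Dusp4 thus stood at rank 9 for likeness to Dusp5, and Dusp6 at rank 17, among 14318 other genes.

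Dusp2 and Dusp1 had other neighbours. For Dusp2 they were Was (0.91), Ptprcap (0.89), Dok2 (0.89), Unc119 (0.88) and Sting1 (0.88), of which Was, Ptprcap and Dok2 are expressed mainly in blood cells. For Dusp1 they were S100a8 (0.71), a neutrophil calprotectin gene, Ampd3 (0.71), Nfkbiz (0.69), Pi15 (0.69) and Fgf7 (0.68). The r of Dusp1 with the other 4 phosphatase genes was between -0.44 and -0.37, and that of Dusp2 with Dusp4, Dusp5 and Dusp6 between 0.49 and 0.61.

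T and NK cell genes and Dusp2 were both highest at day 1 and lower in late tumours than at day 1. The mean level of T and NK cell genes was 8.01, 7.73, 7.83, 7.55 and 7.39 at days 1, 2, 3, 6 and 9 and 6.34 in late tumours. Dusp2 averaged 7.69, 7.49, 7.22, 7.32 and 7.02 on those days and 6.70 in late tumours. The distance from day 0 differed, where the means were 6.27 for these genes and 7.16 for Dusp2. Of 13 measured T and NK cell genes, 12 were higher at day 1 than at day 0, where 7.57% of all genes were. Their median difference was 1.77 log2 units against 0 over all genes. Their summed intensity ran from 2620 to 9010 at day 1 and from 579 to 2020 in late tumours, against 531 to 2110 at day 0. At days 2, 3, 6 and 9, 6, 10, 4 and 2 of the 13 were higher than at day 0, with medians of 1.45, 1.59, 1.30 and 1.27, while Dusp2 differed from day 0 by 0.33, 0.06, 0.16 and -0.14 and was not called. Over all genes 6.74%, 9.74%, 5.74% and 2.65% were higher on those days. All 13 T and NK cell genes were lower in late tumours than at day 1 (median -1.37, all genes 0.06), where 22.8% of all genes were lower. None of the 13 was called between late tumours and day 0 (median 0.11), where Dusp2 was called lower. Among the 7 day 1 tumours, Dusp2 and the mean level of these genes had r = 0.89 (permutation p = 0.0107, adjusted p = 0.135) and rho = 0.82 (permutation p = 0.0341, adjusted p = 0.244). The r was 0.86 without the 2 farthest tumours and 0.80 in the 6 of set 2, and among the late tumours it was -0.04 (permutation p = 0.905). Macrophage genes were also lower in late tumours than at day 1, in 11 of 12 (median -1.23). Of 5 B and plasma cell genes 1 was lower and none higher in that comparison (median -0.10), a share near the 22.8% of all genes. The part of any of these cells in the level of Dusp2 was not tested.

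Markers of other cells are given beside the shares over all genes. Counts of marker genes, those of T and NK cells included, were taken without a block for spike-in set. No set is shared between day 0 and days 1, 2, 3 and 6. Of 12 macrophage genes, 8 to 9 were higher than at day 0 on each of days 1, 2, 3 and 6, with summed intensities of 31100 to 48900 at day 1 and 9830 to 23400 at day 0. Over all genes 7.57%, 6.74%, 9.74% and 5.74% were higher on those days. In late tumours macrophage sums ran from 12700 to 24300, with 1 gene higher and 2 lower than at day 0. Of 6 mast cell genes, 5 or 6 were higher on each of those days (medians 1.80 to 2.74), with sums of 8870 to 12400 at day 6 and 631 to 2000 at day 0. Of 6 neutrophil genes, S100a8 among them, 2 were higher in late tumours, a share near the 26.3% of all genes, and sums ran from 1270 to 31900 there, against 824 to 5290 at day 0. Of 13 proliferation genes, 12 were lower in late tumours (median -1.27), where 20.1% of all genes were lower. Schwann cell and nerve genes were higher there in 5 of 7 (median 1.71), skeletal muscle genes in 4 of 7 (1.72), endothelial genes in 4 of 8 (0.73), fibroblast genes in 4 of 8 (0.38) and mast cell genes in 3 of 6 (0.96). B and plasma cell genes were higher in 3 of 5 (0.58), adipocyte genes in 2 of 4 (1.72) and keratinocyte genes in 2 of 9 (1.97). Over all genes 26.3% were higher, and the keratinocyte share lay near that. Of the 11 melanocyte lineage genes tested, 4 were higher and 1 lower in late tumours (median 0.43), against 26.3% and 20.1% of all genes. The part of these cells in the levels of the 5 phosphatase genes was not tested.

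Other known ERK output genes fell beside Dusp4, Dusp5 and Dusp6. The list held 30 genes without the 5 phosphatases, of which 28 were measured and tested. In late tumours 20 of the 28 were lower than at day 0 and none was higher, with a median of -1.0 against 0.05 over all genes. Over all genes 20.1% were lower and 26.3% higher. Spred3, a feedback inhibitor of RAF activation, fell by 2.08 ± 0.19 (adjusted p = 2.04e-09), and the cyclin gene Ccnd1 fell by 2.16 ± 0.24 (adjusted p = 2.86e-08). Hbegf fell by 2.90 ± 0.32 (adjusted p = 3.01e-08) and Fosl1, which encodes the AP-1 subunit FRA-1, fell by 2.35 ± 0.30 (adjusted p = 2.29e-07). The fall of Dusp4 in late tumours was larger in estimate than any of these, and that of Dusp6 was close to that of Etv4, an ETS factor (-1.46 ± 0.16, adjusted p = 2.86e-08).

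The same list shows when its members were called. Over days 1, 2, 3, 6 and 9, the genes lower than at day 0 numbered 8, 12, 18, 14 and 11 of 28, and none was higher. The medians of the list were -0.56, -0.67, -1.01, -0.86 and -0.98. Over all genes 6.25%, 8.35%, 11.6%, 6.46% and 1.91% were lower on those days. Days 1, 2, 3 and 6 share no spike-in set with day 0. At day 1 the feedback inhibitor genes Spred3 (-1.13), Spry2 (-0.77) and Spry4 (-0.63) were lower beside Dusp4, Dusp5 and Dusp6, while Egr1 (-0.43, adjusted p = 0.427) and Ccnd1 (-0.61, adjusted p = 0.0993) were not called. In late tumours 17 of the 28 were lower than at day 1 and none was higher, where 22.8% of all genes were lower. The median of the list was then -0.49, against 0.06 over all genes. Spry2 was not among the 17 and differed from day 1 by 0.06 ± 0.15 (adjusted p = 0.774), while Dusp4, Dusp5 and Dusp6 were lower than at day 1.

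The mean level of the ERK output genes was set against the 3 genes within groups. For Dusp6 among late tumours r was 0.77 (permutation p = 0.00298, adjusted p = 0.104) and rho 0.84 (permutation p = 0.00402, adjusted p = 0.0703), with r = 0.67 without the 2 farthest tumours and 0.79 in the 8 of set 2. For Dusp6 among day 1 tumours r was 0.88 (permutation p = 0.0119, adjusted p = 0.135) and rho 0.75 (permutation p = 0.0663, adjusted p = 0.29), with r = 0.75 without the 2 farthest and 0.86 in the 6 of set 2. For Dusp4 r was 0.67 among late tumours (permutation p = 0.0272, adjusted p = 0.19; rho 0.76, and r = 0.48 in set 2) and 0.56 among day 1 tumours (permutation p = 0.194). For Dusp5 r was -0.16 among late tumours (permutation p = 0.636) and 0.66 among day 1 tumours (permutation p = 0.123). These relations did not pass the adjustment over 35.

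**Figure D4:**
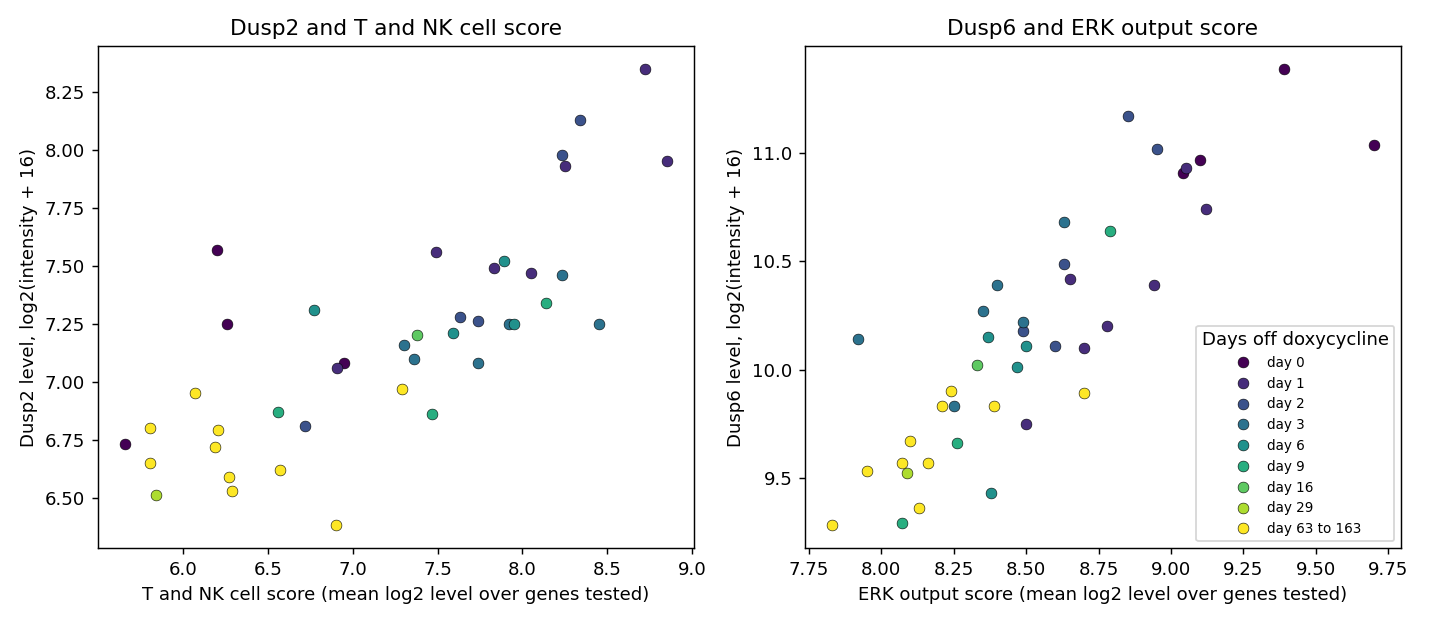
Level of Dusp2 against the mean level of T and NK cell genes (left) and of Dusp6 against the mean level of ERK output genes (right), all in log2(intensity + 16). Each point is 1 of 41 tumours, coloured by days off doxycycline. On the T and NK cell axis day 1 tumours lie between 6.91 and 8.85, above most late tumours (5.81 to 7.29) and day 0 tumours (5.66 to 6.95), and on the ERK output axis day 0 tumours (9.04 to 9.70) lie above all late tumours (7.83 to 8.70).

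Among the other MAP kinase phosphatases, of Dusp7, Dusp8, Dusp9, Dusp10 and Dusp16, 3 were lower in late tumours than at day 0, with a median of -0.32. Over all genes 20.1% were lower. Dusp7, which encodes a cytoplasmic phosphatase of ERK like DUSP6, fell by 0.54 ± 0.16 (adjusted p = 0.00617). Dusp9 fell by 0.39 ± 0.09 (adjusted p = 0.000703) and Dusp8, whose product acts on JNK and p38, fell by 0.32 ± 0.13 (adjusted p = 0.0346). Dusp10 and Dusp16, whose products also act on JNK and p38, differed by 0.01 and 0.25 (adjusted p = 0.977 and 0.243). They were higher in late tumours than at day 1, by 0.57 ± 0.15 (adjusted p = 0.00202) and 0.42 ± 0.14 (adjusted p = 0.0149), where 28.9% of all genes were higher.

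Atypical and slingshot-type dual specificity phosphatases, most of which are not classed as MAP kinase phosphatases, had 6 members higher and 2 lower of 16 tested in late tumours against day 0, with a median of 0.11. Of 16 MAP kinases and upstream kinases, 6 were higher and 6 lower. Over all genes 26.3% were higher and 20.1% lower, and the shares of these lists were not tested against those of all genes. Dusp22 rose by 0.77 ± 0.20 (adjusted p = 0.00244) and Dusp3, also known as VHR, by 0.58 ± 0.15 (adjusted p = 0.00201). Among the kinases, Mapk12, which encodes p38 gamma and is abundant in skeletal muscle, rose by 1.39 ± 0.13 (adjusted p = 4.43e-09), beside the muscle markers above, and Map2k3 fell by 0.79 ± 0.14 (adjusted p = 3.27e-05).

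Dusp1 belongs to the immediate early genes. Some of them, Egr1 and Junb included, are also on the list of ERK output genes. Of 20, 6 were lower and 4 higher in late tumours than at day 0, with a median of -0.25 against 0.05 over all genes. Over all genes 20.1% were lower and 26.3% higher, and these shares were not tested against each other. Jund fell by 1.48 ± 0.22 (adjusted p = 2.46e-06) and Junb fell by 1.79 ± 0.34 (adjusted p = 7.26e-05), whereas Egr1 differed by -0.57 ± 0.31 (adjusted p = 0.131). At day 1 the only member called was Gadd45b, which was higher (0.75 ± 0.21, adjusted p = 0.0152). Over all genes 7.57% were higher and 6.25% lower at day 1, which shares no spike-in set with day 0. Dusp1 and the mean level of these genes had r = 0.56 among late tumours (permutation p = 0.0964, adjusted p = 0.312), 0.34 without the 2 farthest tumours and 0.70 in the 8 of set 2.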

How the data were processed

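The deposited values are linear intensity, 1 per probe set and array, in 41 arrays. The submitters' processing notes name RMA and MAS5, without a version or a role, and no genome build or detection call was used here. From these intensities log2(value + 16) was computed and quantile normalised. The array has 45101 probe sets, of which the 34958 annotated to exactly 1 gene were kept, while 932 had several genes and 9211 had none. The probe set with the highest mean stood for a gene, which left 18194 genes. Genes above the 40th percentile of at least 3 arrays were tested, 14319 in all.

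limma 3.58.1 in R 4.3.3 fitted a mean per group over all 41 tumours (32 residual and 2.58 prior degrees of freedom), with 10 comparisons and a Benjamini-Hochberg adjusted p under 0.05 as the call. Days 16 and 29, with 1 tumour each, entered no comparison. Replicates are the labels' tumours, not stated to be separate mice, so p-values measure the spread between these samples. Single values were tested by exact permutation (scipy 1.17.1), and correlations with 10 tumours by 100000 permutations. Intervals are at 95%. Figures used matplotlib 3.10.9 in Python 3.11.15. The fitting code was checked on simulated arrays with known changes.

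The 5 genes, the gene lists, the spike-in sets and the alternatives were chosen with earlier results of these data known. Spike-in sets came from the log2 level of the bioD control (under 12 for set 1) and, for the rest, of the dap controls (under 9.4 for set 2). Members of lists are named when among the 4 lowest p of those called, or when in a set of 8 ERK output genes, and genes of like pattern are the 5 with the highest r. Alternatives were other scalings, pseudocounts, filters, probe set rules and variance models, fewer groups, a block for, or a subset by, spike-in set, the Gapdh difference as a covariate or limit, other late days, and each tumour left out. Promoters are RefSeq's, GRCm38.p6.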

Additional observations from a re-analysis of the deposited data

How the results depend on the processing

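Under alternatives other than leaving out 1 tumour, 684 differences of single genes kept direction and side of the threshold, 52 lost the call, 6 gained it and 8 changed sign. With 1 tumour left out, 552 kept both, 30 lost the call, 1 gained it and 12 changed sign. Array scaling, pseudocount, filter and probe set rule ended only the late calls of Dusp1 and Dusp2 against day 0, and scaling added Dusp2 at day 1.

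The number of the 5 genes called was 3 at day 1, 2 at day 2, 3 at days 3, 6 and 9, 5 in late tumours against day 0, 3 against days 6 and 9, and 0 for day 6 against day 1. With a block for spike-in set it was 0 at days 1, 2, 3 and 6, 3 in late tumours against day 0 and 1 against days 6 and 9. The block left 3.68%, 0.265%, 0.342% and 0.251% of all genes lower at days 1, 2, 3 and 6, and 10.8% in late tumours against day 0. With only the compared groups fitted it was 1 at day 2 and 0 at day 9, where fewer samples set the spread and 0 of all genes were called (2481 at an unadjusted p under 0.05). Without tumours of Gapdh difference over 2 it was 0 at day 9 (8 of all genes lower), 3 for late tumours against day 0 and 1 against days 6 and 9, and with that difference as a covariate 3 and 0. Within spike-in set 3 it was 0 at day 9 (limma, 0 of all genes lower and 1 higher, 2203 at an unadjusted p under 0.05) and 3 in late tumours, and with days 63 and 77 alone as late it was 3. Array weights gave 1 for day 6 against day 1. With each tumour left out the number ran from 0 to 4 at day 1, from 1 to 3 at day 9, from 3 to 5 in late tumours against day 0, and from 0 to 3 against days 6 and 9. The low values came without day 0 replicates 1 (1 gene) and 4 (0 genes) at day 1, without day 9 replicate 3 at day 9, without day 0 replicates 2 and 4 and late replicate 4, and without day 9 replicate 2.

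Changes of sign were among differences that had not been called. With the block Dusp1 differed from day 0 by -0.16 at day 1, -0.24 at day 2, -0.61 at day 3 and -0.09 at day 6, Dusp6 by 0.06 in late tumours against days 6 and 9, and Dusp2 by 0.26 at day 6 against day 1. Without tumours of Gapdh difference over 2 Dusp1 differed by -0.39 at day 9, and with array weights by 0.15 for days 3 and 6 against day 2. With tumours left out Dusp1 ran from -0.37 to 0.52 at day 1, -0.28 to 0.61 at day 3, -0.39 to 0.54 at day 9 and -0.27 to 0.07 for days 3 and 6 against day 2, and Dusp2 from -0.08 to 0.20 at day 3. Comparing the sizes of change within spike-in sets was added after seeing the data, and there the larger fall of Dusp4 than Dusp5 was not called. Within set 2 the larger falls of Dusp5 and Dusp6 than Dusp2 were not called either. The cause of these changes was not tested. For all genes, day 6 against day 1 split into 359 lower and 239 higher, and into 478 and 136 with arrays centred on their medians.

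No paired analysis was possible because the numbering of tumours within a group is merely their deposit order. Levels near the array's background compress differences, and 4 tumours at day 0 and 3 at day 9 limit every comparison that rests on them.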
